A study of Homo sapiens with 2 samples.

Results

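The Hippo pathway and its nuclear output, the coactivators YAP and TAZ and the TEAD factors they bind, were described in RNA sequencing of a breast cancer cell line called 468. The set held 10 genes, all found in both libraries, of 13017 genes in the tables: the coactivator genes YAP1 and WWTR1 (which encodes TAZ), the factor genes TEAD1, TEAD3 and TEAD4, the negative regulators LATS2 and AMOTL2, and the target genes CCN1, CCN2 and ANKRD1. They were chosen from a list of pathway genes with the FPKM values of these same libraries already known, so their levels and ratios are given as a description and support no test.

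One library came from 468 cells transfected with Smart Silencer oligonucleotides, sold as a mixture, that target the antisense RNA THAP7-AS1, and the other from 468 cells given the negative control si-NC. Both cultures were grown in L15 medium with 10% FBS, and RNA was taken after 48 h. The cells are labelled epithelioid breast cancer cells, and both libraries come from this 1 line, with 1 library in each group. No difference has a replicate check, and no p-value is given. THAP7-AS1 itself is not analysed here; THAP7, which overlaps it on the opposite strand, was at 8.38 FPKM in knockdown cells, against 2.71 FPKM in control cells, and the sources used here do not say whether the libraries kept the strand.

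FPKM, the fragments of a gene scaled by its length and by the total of its library, allows levels to be compared between genes. Ratios are log2((knockdown FPKM + 1)/(control FPKM + 1)) unless stated, a scale that understates differences of low genes. The 10925 genes whose mean reached 1 FPKM, among them all 10 members, form the background. Their median log2 ratio was 0.02, with quartiles at -0.12 and 0.16. The depth was estimated at 11100000 fragments for knockdown and 10900000 for control. The label was checked against markers: epithelial genes (EPCAM, CDH1, KRT7, KRT8, KRT18 and KRT19) lay between 12.4 and 1106 FPKM in knockdown cells and between 17.06 and 1057 FPKM in control cells. Of 5 fibroblast markers listed, the 3 analysed (COL1A1, PDGFRB and FAP) summed to 1.74 FPKM in knockdown cells and 2.24 in control cells. Of 4 leukocyte markers listed, the 2 analysed (CD14 and CD68) summed to 13.6 and 12.7 in the same order. Most of that sum was CD14, at 10.3 FPKM in knockdown cells and 9.50 in control cells. Of 3 endothelial markers listed, 0 were analysed. No cell type is excluded by these values. Each value averages a whole culture, so a change in the share of cells and a change in RNA per cell cannot be told apart.

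In the Hippo pathway, the kinases MST1 and MST2 (genes STK4 and STK3), with their partner proteins SAV1 and MOB1, activate the kinases LATS1 and LATS2. LATS kinases phosphorylate YAP and TAZ, which are then held in the cytoplasm or degraded. When the kinases are inactive, YAP and TAZ enter the nucleus and, bound to TEAD factors, turn on genes of growth, adhesion and matrix. In breast epithelium the pathway responds to cell density, stiffness and contact. LATS2 and AMOTL2 are themselves TEAD targets and act as negative feedback.

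In the knockdown library the order from high to low was TEAD3, AMOTL2, YAP1, CCN1, WWTR1, TEAD4, ANKRD1, CCN2, TEAD1 and LATS2. In the control library it was TEAD3, AMOTL2, WWTR1, YAP1, CCN1, TEAD4, TEAD1, LATS2, CCN2 and ANKRD1. The spread between cultures is not known, so neighbours in these orders cannot be separated. YAP1 and WWTR1 changed places, and ANKRD1 and CCN2, the lowest genes of the control library, stood above TEAD1 and LATS2 in the knockdown library.

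**Figure D1:**
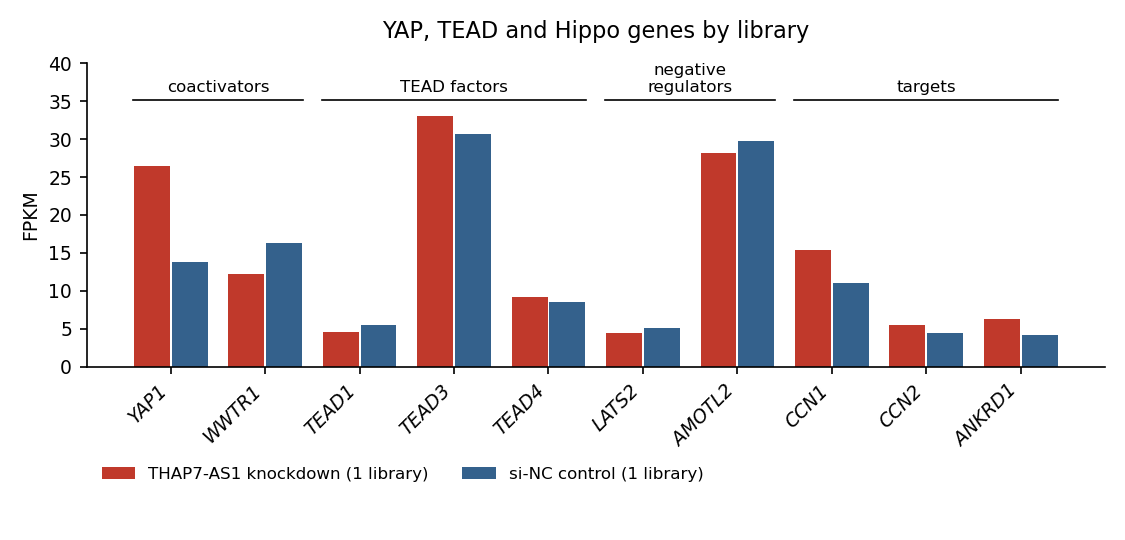
FPKM of the 10 members in the THAP7-AS1 knockdown library (red, left) and the si-NC control library (blue, right), 1 library each and therefore without error bars, grouped by role. YAP1 stands at 26.4 FPKM against 13.7, and CCN1, CCN2 and ANKRD1 are each higher in the knockdown library.

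The coactivators lay in opposite directions. YAP1 (ENSG00000137693.13_3) was at 26.4 FPKM in knockdown cells, against 13.7 FPKM in control cells, a 1.92-fold higher level and a log2 ratio of 0.90. WWTR1 (ENSG00000018408.14_3) was at 12.2 FPKM in knockdown cells, against 16.3 FPKM in control cells, a 1.33-fold lower level and a log2 ratio of -0.38. YAP1 was thus the more abundant coactivator transcript in knockdown cells and the less abundant one in control cells. The YAP1 level was 2.16 times that of WWTR1 in knockdown cells and 0.845 times in control cells. YAP1 made up 68.4% of the summed coactivator FPKM in knockdown cells and 45.8% in control cells. That sum was 38.6 FPKM in knockdown cells and 29.99 FPKM in control cells.

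YAP1 was the 1 member of 10 that reached 1.5-fold higher in knockdown cells on the FPKM + 1 scale, beside 2.98% of all 10925 genes. Of the members, 0 were at least 1.5-fold lower, beside 2.46% of all genes. At 2-fold, 0 members lay in either direction, beside 0.604% of genes higher and 0.668% lower. Since these same values were known when the set was drawn up, nothing is read from these shares. A log2 ratio at least as high as that of YAP1 was found in 93 genes, or 0.851% of the background, and in 1 of the 500 genes nearest to it in mean level. A log2 ratio at least as low as that of WWTR1 was found in 5.68% of the background and in 3.8% of the 500 genes nearest to it in level.

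How firmly these levels were counted was reckoned from the estimated depth, which assumes that the lowest values that gather together stand for 1 fragment. YAP1 would rest on about 1852 fragments in knockdown cells and 946 in control cells. Its log2 ratio of FPKM without the added 1 was 0.94, with a 95% counting interval of 0.83 to 1.06. That of WWTR1 was -0.41, with an interval of -0.52 to -0.30. These intervals cover counting error only, and they are too narrow where the fragment number, taken from the length of all annotated exons, is overstated. They do not measure how cultures differ.

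Genes next to YAP1 on chromosome 11 were measured on 1 side alone. Of the 3 protein-coding genes on either side, those 3 are the apoptosis inhibitor genes BIRC3 and BIRC2, and TMEM123. None of them was 1.5-fold apart. The 3 on the other side were either absent or under the minimum mean of 1 FPKM. BIRC2 was at 7.49 FPKM in knockdown cells and 7.41 in control cells. BIRC3 had a log2 ratio of -0.41 and TMEM123 one of -0.10. Over all 10 members, 39 such neighbours were measured and 3 of them were at least 1.5-fold apart, beside 2.98% of all genes higher and 2.46% lower: TM4SF1 near WWTR1, PPP1R3C near ANKRD1 and DDAH1 near CCN1. TM4SF1 was at 27.9 FPKM in knockdown cells and 17.2 in control cells, opposite in direction to WWTR1. DDAH1 was at 9.17 FPKM in knockdown cells and 15.05 in control cells, opposite in direction to CCN1. PPP1R3C was at 6.66 FPKM in knockdown cells and 3.79 in control cells, in the same direction as ANKRD1. These 3 neighbours are named after their values were seen. YAP1, WWTR1 and CCN2 each share exon bases with 1 annotated antisense gene, and reads of the partner may be counted in these 3 if the libraries did not keep the strand. AMOTL2 shares exon bases with the pseudogene RPL39P5 on its own strand, to which reads may be divided.

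**Figure D2:**
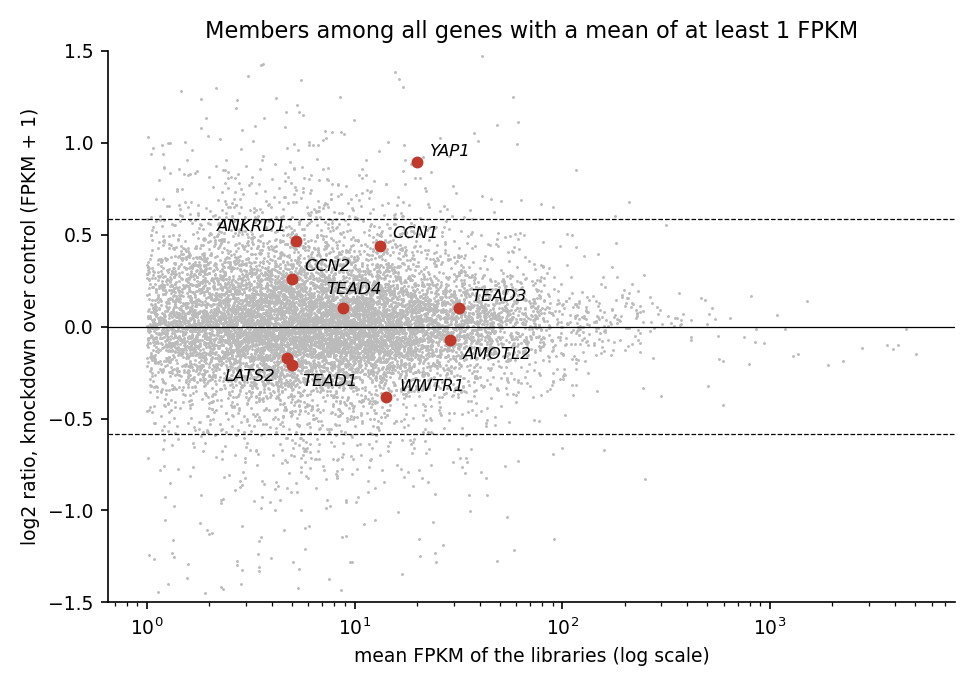
Log2 ratio of knockdown over control (FPKM + 1) against mean FPKM (log axis) for the 10925 genes whose mean reached 1 FPKM (grey) and the 10 members (red). Dashed lines mark 1.5-fold; YAP1 is the 1 member beyond them, and 37 genes lie outside the vertical range shown.

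The DNA-binding partners differed less than the coactivators. TEAD3 (ENSG00000007866.19_4) was at 33.01 FPKM in knockdown cells, against 30.7 FPKM in control cells, with a log2 ratio of 0.10. TEAD4 (ENSG00000197905.8_4) was at 9.13 FPKM in knockdown cells, against 8.46 FPKM in control cells, again with a log2 ratio of 0.10. TEAD1 (ENSG00000187079.16_3) was at 4.58 FPKM in knockdown cells, against 5.44 FPKM in control cells, with a log2 ratio of -0.21. TEAD1 was the 1 of these 3 that was lower in the knockdown library, and its 95% counting interval on the FPKM scale, -0.42 to -0.08, lay below 0. That interval covers counting error only, and a log2 ratio at least as low was found in 15.7% of all genes. The intervals of TEAD3 (-0.02 to 0.23) and TEAD4 (-0.16 to 0.38) included 0.

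Adding the paralog TEAD2, at 18.4 FPKM in knockdown cells and 21.8 in control cells, the 4 TEAD genes summed to 65.1 FPKM in knockdown cells and 66.4 in control cells. TEAD3 gave 50.7% of that sum in knockdown cells and 46.2% in control cells. TEAD1, the least abundant, gave 7.04% in knockdown cells and 8.20% in control cells. The total of TEAD transcripts was therefore nearly equal, with TEAD3 in first place in both libraries. The VGLL proteins bind TEAD factors in competition with YAP and TAZ. VGLL4, which acts as a repressor of TEAD, was at 4.28 FPKM in knockdown cells, against 2.76 FPKM in control cells, with a log2 ratio of 0.49. VGLL1 was at 82.5 FPKM in knockdown cells and 69.2 in control cells, above every TEAD gene in both.

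The negative regulators among the members were both lower by small amounts. LATS2 (ENSG00000150457.8_2), a kinase that phosphorylates YAP and TAZ, was at 4.37 FPKM in knockdown cells, against 5.05 FPKM in control cells, with a log2 ratio of -0.17. AMOTL2 (ENSG00000114019.14_3), an angiomotin that binds YAP and retains it at junctions, was at 28.2 FPKM in knockdown cells, against 29.7 FPKM in control cells, with a log2 ratio of -0.07. Their 95% counting intervals, -0.44 to 0.03 for LATS2 and -0.17 to 0.01 for AMOTL2, included 0. LATS1, the paralog of LATS2, was at 4.29 FPKM in knockdown cells and 5.004 in control cells, so the LATS genes together stood at 8.67 FPKM in knockdown cells and 10.06 FPKM in control cells. The other angiomotin genes, AMOT and AMOTL1, had log2 ratios of 0.02 and 0.18. The 3 angiomotin genes summed to 53.2 FPKM in knockdown cells and 53.04 in control cells.

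CCN1, ANKRD1 and CCN2, the members listed for their role as targets, were each higher in the knockdown library, whereas LATS2 and AMOTL2, which are also TEAD targets, had the log2 ratios below 0 given above. CCN1 (ENSG00000142871.16_3, also known as CYR61), a secreted matrix protein, was at 15.3 FPKM in knockdown cells, against 11.1 FPKM in control cells, a 1.38-fold higher level and a log2 ratio of 0.44. ANKRD1 (ENSG00000148677.6_2), an ankyrin repeat protein known from heart muscle, was at 6.22 FPKM in knockdown cells, against 4.24 FPKM in control cells, a 1.47-fold higher level and a log2 ratio of 0.46. CCN2 (ENSG00000118523.5_2, also known as CTGF), the connective tissue growth factor, was at 5.51 FPKM in knockdown cells, against 4.45 FPKM in control cells, a 1.24-fold higher level and a log2 ratio of 0.26. Together they summed to 27.1 FPKM in knockdown cells and 19.8 FPKM in control cells. None of them reached 1.5-fold on the FPKM + 1 scale.

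Against the background, a log2 ratio at least as high was found in 5.24% of all genes for ANKRD1, 6.03% for CCN1 and 15.2% for CCN2. ANKRD1 and CCN2 have a single annotated transcript each, which makes their fragment numbers the most direct of the set: about 137 in knockdown cells and 92 in control cells for ANKRD1, and 144 in knockdown cells and 114 in control cells for CCN2. On the FPKM scale the 95% counting interval of the log2 ratio was 0.17 to 0.94 for ANKRD1 and 0.25 to 0.68 for CCN1. That of CCN2 was -0.05 to 0.66. These intervals describe counting error at a depth estimated from 14 genes for knockdown and 10 for control, and they test no difference. The 6 members above 0, beside 53.1% of all genes, were YAP1, TEAD3, TEAD4 and the 3 targets, and the 4 members below 0, beside 46.9% of all genes, were WWTR1, TEAD1, LATS2 and AMOTL2.

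Promoter sequence was examined for what the members share beyond their expression. Windows of 300 bases, from 250 before to 50 after an annotated start, were taken from RefSeq (build GRCh38.p14); 7 of the 10 members matched, with 9 windows. TEAD factors recognise the letters GGAATG, searched on both strands (CATTCC on the other). The motif was present in 5 of the 7 members, YAP1, CCN2, ANKRD1, AMOTL2 and LATS2, and in 14.5% of 8858 measured genes with a window. CCN2, ANKRD1, AMOTL2 and LATS2 are known TEAD targets, so a high share is built into the choice of members. Nothing is read from it. The motif was not in the windows of WWTR1 and TEAD3, nor in another window of AMOTL2. CCN1, TEAD1 and TEAD4 had no window and were not searched. The windows of the 5 genes are printed because they carry these matches; capitals mark GGAATG or CATTCC, and each reads 5′ to 3′ on the strand of its gene. CCN2 lies at chr6:131951323-131951622 (minus strand), ANKRD1 at chr10:90921038-90921337 (minus), YAP1 at chr11:102110197-102110496 (plus), AMOTL2 at chr3:134374398-134374697 (minus) and LATS2 at chr13:21061537-21061836 (minus).
CCN2: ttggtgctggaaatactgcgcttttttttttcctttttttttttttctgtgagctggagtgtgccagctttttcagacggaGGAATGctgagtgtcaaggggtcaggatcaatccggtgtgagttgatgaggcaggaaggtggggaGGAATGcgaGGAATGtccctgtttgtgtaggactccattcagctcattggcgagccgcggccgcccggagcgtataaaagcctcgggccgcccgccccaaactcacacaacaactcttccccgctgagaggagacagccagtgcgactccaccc
ANKRD1: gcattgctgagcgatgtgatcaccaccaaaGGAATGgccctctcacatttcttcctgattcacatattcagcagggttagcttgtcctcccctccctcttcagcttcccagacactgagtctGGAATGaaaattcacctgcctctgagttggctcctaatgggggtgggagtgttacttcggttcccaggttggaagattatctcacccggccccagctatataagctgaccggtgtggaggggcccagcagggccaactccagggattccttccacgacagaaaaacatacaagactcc
YAP1: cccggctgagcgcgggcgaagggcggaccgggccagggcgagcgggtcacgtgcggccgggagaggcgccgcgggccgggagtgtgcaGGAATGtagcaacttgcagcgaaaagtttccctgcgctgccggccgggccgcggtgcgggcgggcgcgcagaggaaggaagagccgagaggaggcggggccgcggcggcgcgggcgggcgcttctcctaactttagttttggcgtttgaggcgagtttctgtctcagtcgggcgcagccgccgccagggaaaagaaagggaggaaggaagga
AMOTL2: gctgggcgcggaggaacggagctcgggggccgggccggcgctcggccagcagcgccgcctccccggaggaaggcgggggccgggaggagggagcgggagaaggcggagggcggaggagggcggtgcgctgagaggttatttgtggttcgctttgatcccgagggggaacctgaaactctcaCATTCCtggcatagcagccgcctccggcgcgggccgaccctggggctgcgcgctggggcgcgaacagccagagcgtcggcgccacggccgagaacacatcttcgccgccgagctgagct
LATS2: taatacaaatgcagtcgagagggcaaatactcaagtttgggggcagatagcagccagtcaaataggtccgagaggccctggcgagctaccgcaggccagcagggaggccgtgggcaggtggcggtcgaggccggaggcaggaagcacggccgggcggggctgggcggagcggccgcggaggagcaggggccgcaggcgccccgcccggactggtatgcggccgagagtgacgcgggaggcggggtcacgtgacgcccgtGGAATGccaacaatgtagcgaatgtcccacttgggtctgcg

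CCN2 held 3 matches, whose first letters lie 169, 104 and 95 bases before its start. ANKRD1 held 2, at 220 and 128 bases before its start. YAP1 held 1 at 162 bases before, AMOTL2 1 on the other strand at 69 bases before, and LATS2 1 at the base numbered 10 from its start. The genes with a match thus include 3 that were higher in the knockdown library (CCN2, ANKRD1 and YAP1) and 2 with log2 ratios below 0 (AMOTL2 and LATS2). Other factors that act with TEAD were searched in the same way. For AP-1 the letters TGANTCA were searched, with any base allowed at N, a loose form that reads the same on both strands. They were in the ANKRD1 window alone of the 7 members with a window, as TGATTCA, and in 6.45% of measured genes. The CArG box bound by SRF was in 0 of the 7 members and in 1.5% of measured genes.

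Over all measured genes, those with and without the TEAD motif had medians near each other. The median log2 ratio was 0.03 for the 114 genes with 2 or more matches in a window, 0.004 for the 1171 genes with 1 match and 0.02 for the 7573 genes with none. The share above 0 was 57% with 2 or more matches, 50.6% with 1 match and 53.4% with none. A match is a description of letters and is no measure of binding.

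**Figure D3:**
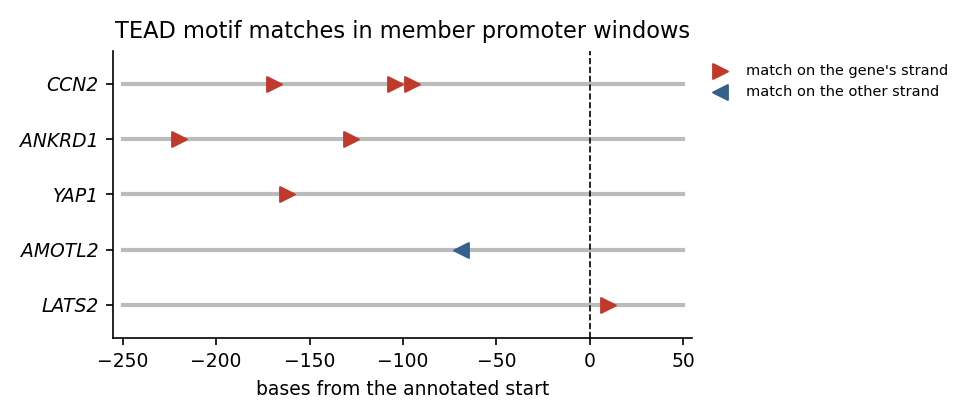
Position of the first letter of each TEAD motif match, in bases from the annotated start (dashed line), in the promoter windows of the 5 members with a match. Red triangles point along the gene's strand and the blue triangle marks a match on the other strand; CCN2 has 3 matches and ANKRD1 has 2.

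Among other target genes, more lay below 0 than above it. Of a list of 29 further YAP and TEAD targets, 24 were measured, with 8 above 0 and 16 below 0, beside 46.9% of all genes below 0, and a median log2 ratio of -0.05. None of the 24 was at least 1.5-fold higher, beside 2.98% of all genes, and 1, MYC, was at least 1.5-fold lower, beside 2.46%, a share near the background. The proto-oncogene MYC was at 1.94 FPKM in knockdown cells, against 3.43 FPKM in control cells, with a log2 ratio of -0.59; with a pseudocount of 5 it was 1.21-fold lower and missed the limit. CCND1, which encodes cyclin D1, was at 29.5 FPKM in knockdown cells, against 41.03 FPKM in control cells, with a log2 ratio of -0.46. ASAP1, an activator of ARF GTPase hydrolysis, was at 8.003 FPKM in knockdown cells and 11.02 FPKM in control cells. NT5E, the surface enzyme CD73 that makes adenosine, was at 22.9 FPKM in knockdown cells and 30.1 FPKM in control cells. The 4 largest ratios of the wider list by size thus lay below 0, while those of CCN1, CCN2 and ANKRD1 lay above it. CCN3, the other CCN family gene analysed here, stood at 0.165 FPKM in knockdown cells and 0.226 in control cells, under the minimum mean of 1.

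CCN1, CCN2 and ANKRD1 also respond to SRF with its coactivators MRTFA and MRTFB, which sense actin. Of 15 genes of that pathway, 13 were measured, with 8 above 0, beside 53.1% of all genes, 5 below 0 and a median of 0.04. None was 1.5-fold apart, beside 2.98% of all genes higher and 2.46% lower, so nothing is read from the absence. SRF itself had a log2 ratio of 0.02. MRTFB was at 1.65 FPKM in knockdown cells, against 2.90 FPKM in control cells, with a log2 ratio of -0.56. FHL2, a LIM protein, was at 9.75 FPKM in knockdown cells and 12.7 FPKM in control cells. VCL, which encodes the adhesion protein vinculin, and MRTFA had log2 ratios of 0.14 and 0.13.

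The kinase arm of the pathway lay mostly below 0. Of 23 listed Hippo kinases and activators, 20 were measured, with 16 below 0, beside 46.9% of all genes, 4 above 0 and a median log2 ratio of -0.08. That median lay within the quartiles of all genes (-0.12 and 0.16). This list and the other pathway lists were written with earlier results of these data known. Nothing is therefore read from their counts above and below 0. None was 1.5-fold apart, beside 2.98% of all genes higher and 2.46% lower. MOB1A, an activating partner of LATS kinases, was at 14.9 FPKM in knockdown cells, against 20.5 FPKM in control cells, with a log2 ratio of -0.43. STK3, the kinase MST2, was at 3.58 FPKM in knockdown cells, against 4.97 FPKM in control cells, with a log2 ratio of -0.38. TAOK1, which activates MST kinases, was at 4.999 FPKM in knockdown cells, against 6.76 FPKM in control cells, with a log2 ratio of -0.37. STK38, a kinase of the same family as LATS, went the other way, at 43.4 FPKM in knockdown cells, against 30.1 FPKM in control cells, with a log2 ratio of 0.51.

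Genes of STRIPAK, the phosphatase complex that inactivates MST kinases, also lay mostly below 0, with 14 of 17 measured genes below 0, beside 46.9% of all genes, 3 above 0 and a median of -0.14. PDCD10, which ties germinal centre kinases to the complex, was at 15.0 FPKM in knockdown cells, against 27.2 FPKM in control cells, with a log2 ratio of -0.82. It was the 1 gene of the list at least 1.5-fold lower, beside 2.46% of all genes, and nothing is read from a single gene. PPP2R1B, a scaffold subunit of the phosphatase PP2A, was at 7.40 FPKM in knockdown cells and 10.99 FPKM in control cells. STRN3, a striatin, was at 3.595 FPKM in knockdown cells and 5.04 FPKM in control cells. STK26, a germinal centre kinase, was higher, at 23.5 FPKM in knockdown cells and 16.5 FPKM in control cells. Both lists, of kinases and of the phosphatase that acts on them, had medians below that of all genes.

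Proteins that bind YAP and TAZ or direct their turnover were divided, with 11 of 19 measured genes above 0, beside 53.1% of all genes, 8 below 0 and a median of 0.07. CTNNA1, which encodes alpha-catenin, was at 9.07 FPKM in knockdown cells, against 7.03 FPKM in control cells, with a log2 ratio of 0.33. AJUBA, a LIM protein that inhibits LATS, had a log2 ratio of 0.25. BTRC, the F-box protein that marks YAP and TAZ for degradation, had one of -0.25.

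**Figure D4:**
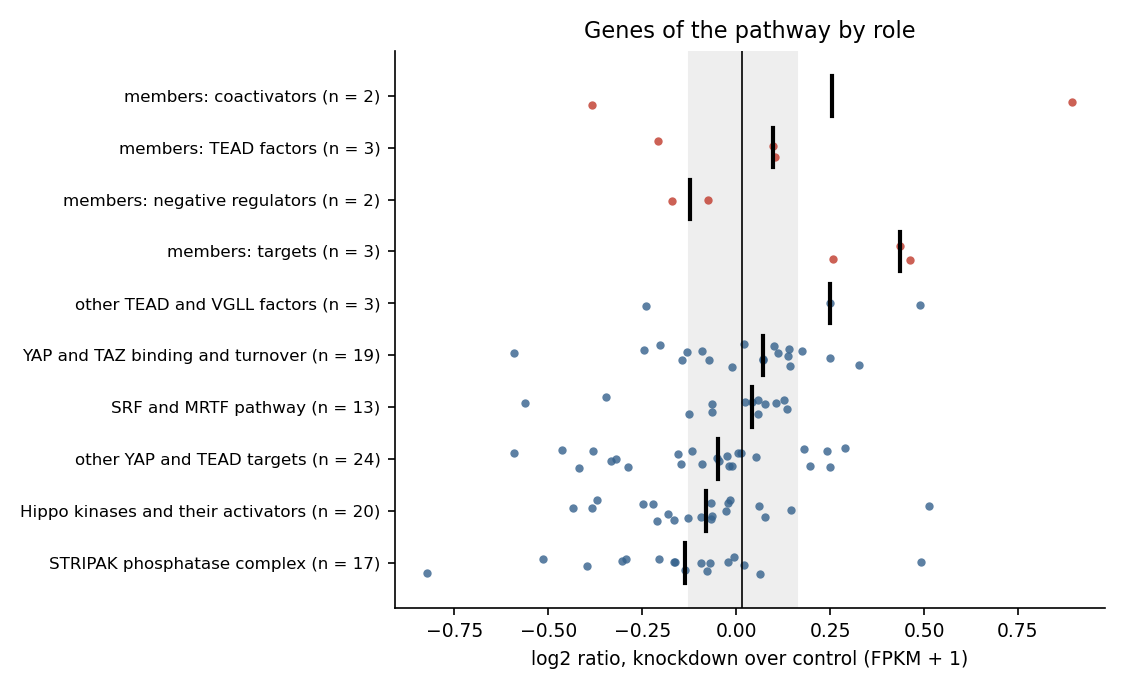
Log2 ratio of knockdown over control (FPKM + 1) for each measured gene of the pathway, by role, with members in red, other genes in blue and the median of each list as a black bar. The vertical line is the median of all 10925 genes (0.02) and the grey band their quartiles (-0.12 to 0.16); the 3 targets lie right of the band, and the medians of Hippo kinases (-0.08) and STRIPAK genes (-0.14) lie left of the line.

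The length of the 3′ UTR moved with the ratio across all genes and differed between these lists. In the quintile of measured genes with the shortest annotated 3′ UTR the median log2 ratio was 0.06 and 36.9% of genes were below 0, and in the quintile with the longest it was -0.02 and 53.7%. Of the 20 Hippo kinases and activators, 14 fell in the longest 2 quintiles, and 13 of these 14 were below 0, beside 53.3% of all genes there. Of the other 6, 3 were below 0, beside 42.5% of all genes with shorter 3′ UTRs. For STRIPAK, 10 of 12 genes in the longest 2 quintiles and 4 of the other 5 were below 0. Other lists did not follow length in this way. Of the 19 genes of YAP and TAZ binding and turnover, 14 also fell in the longest 2 quintiles. Of these 14, 6 were below 0, as were 2 of the other 5. For the further YAP and TEAD targets, 7 of 10 genes in the longest 2 quintiles and 9 of the other 14 were below 0. The 3 targets, at 773 bases for ANKRD1, 923 for CCN1 and 1091 for CCN2, had shorter 3′ UTRs than the coactivators. YAP1 (3486 bases) and WWTR1 (3573 bases) both lay in the longest quintile, with ratios in opposite directions. The part of 3′ UTR length in these ratios was not tested.

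**Figure D5:**
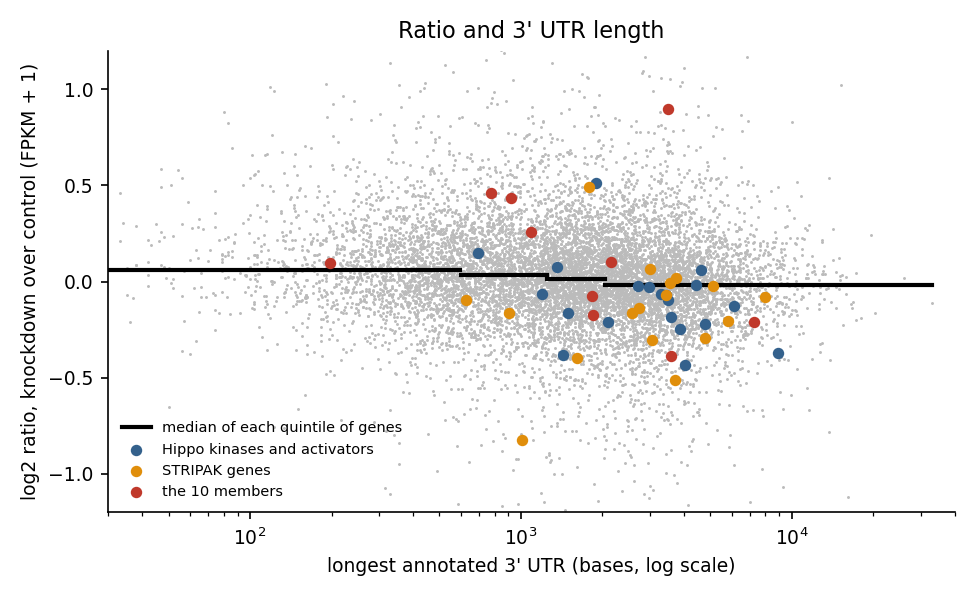
Log2 ratio of knockdown over control (FPKM + 1) against the longest annotated 3′ UTR in bases (log axis) for measured genes (grey), the 10 members (red), Hippo kinases and activators (blue) and STRIPAK genes (orange); 119 of 10856 genes lie outside the axes. Black bars give the median of each quintile of genes by 3′ UTR length, 0.06 in the shortest and -0.02 in the longest; YAP1 and WWTR1 lie at nearly the same length and on opposite sides.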

How the data were processed

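RNA of 2 cultures of 468 cells, 1 per group, was sequenced. Groups were taken from the genotype label, since both samples carry the same treatment label, which names the silencer. The authors deposited 1 FPKM value per gene and library, per the file headers. Reads were handled with cutadapt, HISAT2 2.0.5 and StringTie on build hg19, per the submitters' processing notes. Gene annotation and strandedness are not given in the sources. A symbol was found for 12746 of 13017 gene identifiers. GENCODE release 29 matched 12933 by identifier and gave exon and 3′ UTR lengths only, because its build differs.

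A pseudocount of 1 FPKM and a minimum mean of 1 FPKM were used, and with no replicates a rule of size took the place of a test. Depth was estimated from genes with 1 annotated transcript, whose lowest values times length gathered between 80 and 100, a window set after the values were seen; the medians were 89.7 (knockdown) and 91.4 (control), over 14 and 10 genes. Each median was taken as the value of 1 fragment, which was not checked. Fragments per gene follow from these medians and the exon length.

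Members and lists were chosen with earlier results of these data known. Named beyond the members are the 4 largest ratios of each pathway list, paralogs of members, and neighbours; 1 gene that this rule names is not reported here. AJUBA and PTPN14 stand in both the target and the binding list. Protein sequences were not used here. Alternatives changed the pseudocount, filter, scaling and fold. Values were computed in Python 3.11.15 (pandas 2.3.3, numpy 2.4.6; figures with matplotlib 3.10.9) by code tested on simulated data.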

Additional observations from a re-analysis of the deposited data

How the results depend on the processing

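No paired analysis was possible because each group has 1 library. Members had 78 values under 8 settings of pseudocount, filter and scaling. All 78 moved by less than the spread (from the median absolute deviation) of the 500 genes nearest in level. Under another scaling, 0 of 40 values changed sign. Both counts were largely fixed in advance. A filter cannot change a gene's own ratio. Centring took 0.015 off every log2 ratio, less than the smallest member ratio by size (-0.07, AMOTL2). The other scalings moved members by similarly small amounts, so nothing is read from these counts. The log2 ratio ran from 0.75 to 0.94 for YAP1, from -0.41 to -0.30 for WWTR1 and from 0.28 to 0.54 for ANKRD1. YAP1 alone was past 1.5-fold under each of those settings. At a log2 limit of 0.322, 3 members were higher (YAP1, CCN1 and ANKRD1) and 1 lower (WWTR1). Past that limit lay at least 6.03% of all genes in the higher direction and 5.68% in the lower. These are the shares as far out as CCN1 and WWTR1, and nothing is read from the member counts. At 2-fold 0 members were higher. Over all genes, 66 were 2-fold higher; this number was 140 for a pseudocount of 0.1, 19 for one of 5, 31 where the mean had to reach 5 FPKM, 326 by a 1.5-fold limit and 20 by a 3-fold limit. The 73 genes 2-fold lower numbered 126, 14, 36, 269 and 15 under the same changes in that order. Stricter limits take fewer genes by construction. Where the mean had to reach 5 FPKM, TEAD and VGLL factors above 0 numbered 1 and SRF and MRTF genes below 0 numbered 3; without a filter, 1 CCN family gene outside the set was below 0. Other counts above and below 0 stayed within 1.5 times. Depth limits low genes such as CCN2 and ANKRD1 most, and no setting measures the spread between cultures.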
